A study of Mus musculus with 24 samples.

Results

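The 55 genes described here run the cell cycle, the centrosome and the mitotic spindle, and they were taken as a list of symbols from the 21992 protein-coding genes of the GENCODE annotation of the mouse genome (GRCm38). They fall into 5 roles: 15 genes of the cell cycle engine, 7 of DNA replication and proliferation, 8 mitotic kinases, checkpoint and kinetochore genes, 13 of the centriole and centrosome, and 12 of the spindle and microtubule ends. The values of a gene are the peaks of STAU2 RNA immunoprecipitation (RIP) that lay over its exons on its own strand by at least 1 bp. The study recovered RNA with an antibody against STAU2 from lysates of mouse embryonic cortex and sequenced it beside RNA of the input lysate. STAU2 RIP had 3 libraries on each of 4 embryonic days (E), E11.5, E13.5, E15.5 and lastly E17.5, and so had input, 24 libraries in all, each from the pooled cortices of 1 litter. The labels give no strain, genotype or treatment, and the cells are those of the whole cortex, so progenitors and neurons are mixed. The authors deposited 1 pair of peak lists per time point, with 1 list per strand and none per replicate.

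STAU2 binds double-stranded stretches of RNA and serves the transport and stability of messenger RNAs, and in the embryonic cortex it is known to pass unequally to the daughters of dividing radial glia. Radial glia divide at the ventricular surface, where the centrosome, the spindle and the length of the cell cycle bear on whether a daughter remains a progenitor or becomes a neuron. Mutations in the human genes of several of these centrosome and spindle proteins, WDR62, ASPM, CDK5RAP2, CEP152 and CENPJ among them, cause primary microcephaly.

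The lists hold 6530 peaks on E11.5, 5871 on E13.5, 10265 on E15.5 and 6341 on E17.5, 29007 in all, and 18912 of them reached exons of protein-coding genes. Each peak carries the authors' own p, and ranks given here are by that p among the peaks of both strands of a time point, rank 1 being the strongest. The lists do not state whether a peak stands for more RNA in RIP than in input. They give no value per replicate and no read totals, so the spread between replicates and the depth are unknown and no count below was tested. Peaks over marker genes of the cortex were present for 12 of 17 markers, of the ganglionic eminence for 3 of 6, of vessels and meninges for 5 of 6 and of blood for 0 of 5. Of the vessel and meninges markers, 0 had a peak on E11.5, 4 on E13.5, 1 on E15.5 and 0 on E17.5, and their part in the counts below was not tested.

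The stretches under some of the strongest or recurring peaks show the sequence they cover. The sequences are those of the spliced GENCODE vM21 transcripts, 5′ to 3′, and capitals mark the bases common to the peaks of all time points named beside the gene. The first set are coding stretches: Mki67 (chr7:135697216-135697425, minus strand, E13.5, 56 bases shared with E11.5 and E15.5), Incenp (chr19:9874221-9874289, minus, E15.5, 34 bases shared with E17.5), Akap9 (chr5:4077892-4077957, plus, E15.5, 27 bases shared with E13.5), Cenpe (chr3:135241015-135241080, plus, E11.5) and Cenpf (chr1:189653758-189653885, minus, E11.5).
Mki67: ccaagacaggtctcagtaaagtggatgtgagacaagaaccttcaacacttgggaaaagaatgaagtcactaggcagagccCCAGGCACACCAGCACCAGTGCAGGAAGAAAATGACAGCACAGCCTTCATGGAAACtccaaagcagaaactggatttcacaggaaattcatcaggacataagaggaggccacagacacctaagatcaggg
Incenp: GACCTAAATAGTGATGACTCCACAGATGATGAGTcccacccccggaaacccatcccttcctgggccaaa
Akap9: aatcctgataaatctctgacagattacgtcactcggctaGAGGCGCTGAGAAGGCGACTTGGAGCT
Cenpe: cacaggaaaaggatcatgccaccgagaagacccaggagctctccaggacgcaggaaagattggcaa
Cenpf: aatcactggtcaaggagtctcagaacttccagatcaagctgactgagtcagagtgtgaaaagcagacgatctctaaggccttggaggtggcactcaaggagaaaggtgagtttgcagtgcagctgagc

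The second set are 30-base stretches from the 3′ UTR peaks that ranked highest. They come from Cdk4 (chr10:127067142-127067171, plus, under peaks of E11.5, E15.5 and E17.5), Ccnd2 (chr6:127129957-127129986, minus, E11.5) and Mapre1 (chr2:153773089-153773118, plus, E15.5).
Cdk4: ATAACAAGTCCCCACCTCTCCTTACGAGGT
Ccnd2: aacgaattagaggagactgtcttttgtgct
Mapre1: caaagagctcttgtgatatttgctctctga

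Of the 55 genes, 46 (83.6%) had an exonic peak at 1 or more time points, against 30.1% of all protein-coding genes. The members were chosen with earlier results of these data known, as was the second gene list below. The part of that choice in this and later differences was not tested. Listed at 1 time point only were 24 of the 46 genes with a peak, beside 3156 of the 6609 protein-coding genes with a peak. That is 43.6% of all members, against 14.4% of all genes. Another 13 had peaks at 2 time points and 7 at 3 (Ccnd2, Cdkn1b, Incenp, Cenpf, Akap9, Tpx2 and Pafah1b1). Peaks at all 4 time points were found in 2 genes (3.64%), Cdk4 and Mki67, against 1.77% of all genes. Among genes with a peak, that is 2 of 46 members beside 389 of 6609 protein-coding genes.

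By time point, 17 genes (30.9%) had a peak at E11.5, against 9.06% of all protein-coding genes. At E13.5 it was 19 genes (34.5%), against 11.7%. At E15.5 it was 31 genes (56.4%), against 19.8%. At E17.5 the count was 12 genes (21.8%), against 13.5%. The share of members was thus above that of all genes at each time point, and it came closest to it at E17.5. The background takes in genes that the cortex does not express, and the part of expression in the difference was not tested. In bulk cortex fewer dividing cells and less of an RNA per cell cannot be told apart.

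The E15.5 list is the longest, and the count there depends on that. With each list held to its 5871 strongest peaks, 13, 19, 20 and 12 genes had a peak from E11.5 to E17.5, so that E13.5 and E15.5 differed by 1 gene. That is 23.6%, 34.5%, 36.4% and 21.8% of members, against 8.33%, 11.7%, 13.9% and 12.9% of all protein-coding genes. Among the stronger 50% of peaks 9, 13, 19 and 3 genes did. That is 16.4%, 23.6%, 34.5% and 5.45% of members, against 5.17%, 6.92%, 12.6% and 8.38%, so the members lay below all genes at E17.5.

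The same comparison over 176 other genes of the same 5 roles, written as a second list, gave 38 genes (21.6%) on E11.5, 47 (26.7%) on E13.5, 80 (45.5%) on E15.5 and 40 (22.7%) on E17.5. In all 115 of the 176 (65.3%) had an exonic peak, against 30.1% of all protein-coding genes. E15.5 was the highest time point in both lists and over all protein-coding genes. The shares of all protein-coding genes were 9.06%, 11.7%, 19.8% and 13.5% from E11.5 to E17.5. Among the 176, 5 genes (2.84%) had a peak at all 4 time points, against 1.77% of all protein-coding genes. They were E2f5 and Foxm1, transcription factors of the cell cycle, and Kif20b, a kinesin of cytokinesis. Also among them were Birc5, the survivin subunit of the chromosomal passenger complex, and Zwint, a kinetochore protein.

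**Figure D1:**
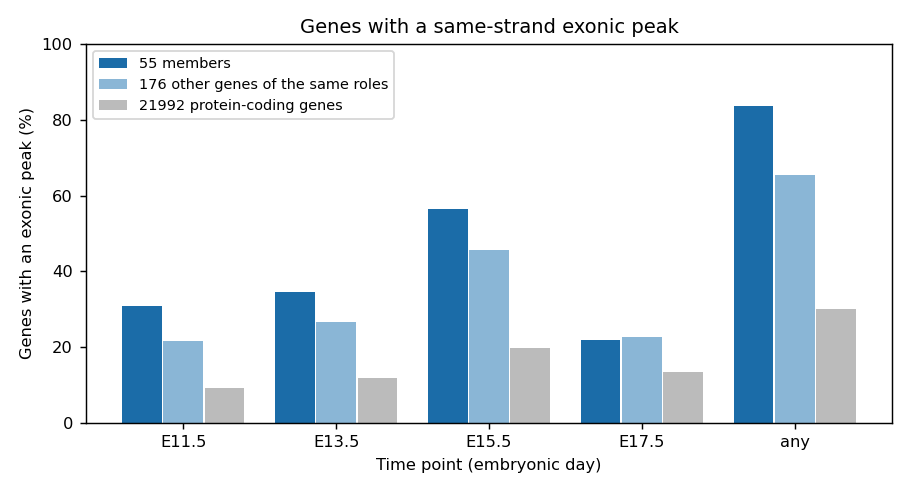
Share of genes with a same-strand exonic peak (y axis, percent) at each time point and at any time point, for the 55 members, the 176 other genes of the same roles and all 21992 protein-coding genes. The members' bars run 30.9%, 34.5%, 56.4% and 21.8% from E11.5 to E17.5, and only at E17.5 do the 176 other genes, at 22.7%, stand higher.

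The members with a peak differed between time points. Between E11.5 and E13.5 14 of the members (25.5%) were gained, with a peak in the later list alone, against 7.85% of all protein-coding genes, and 12 (21.8%) were lost, with a peak in the earlier list alone, against 5.18%. These percents are of all members or of all genes, with or without a peak. The 5 genes with a peak at both were Akap9, Ccnd2, Cdk4, Mki67 and Tacc1, 29.4% of the E11.5 and 26.3% of the E13.5 genes. Over all protein-coding genes, 1140 of the 1992 listed at E11.5 were lost and 1726 of the 2578 listed at E13.5 were gained. The genes listed at E11.5 but not at E13.5 included Ccna2 and Ccnb1, the cyclins of S phase and mitosis, and Cenpe and Cenpf. Those listed at E13.5 but not at E11.5 included Aurka, Bub1, Bub1b, Plk1, Tpx2 and Aspm, which serve mitosis.

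Between E13.5 and E15.5, 19 of the members (34.5%) were gained, against 12.1% of all genes, and 7 (12.7%) were lost, against 3.97%. The 12 genes shared made up 63.2% of the E13.5 and 38.7% of the E15.5 genes. Over all protein-coding genes, 874 of the 2578 listed at E13.5 were lost and 2654 of the 4358 listed at E15.5 were gained. From E15.5 to E17.5 the gain was 2 genes (3.64%), Nin and Numa1, against 5.03%, while 21 genes (38.2%) were lost, against 11.3%. The 10 genes with a peak at both E15.5 and E17.5 made up 32.3% of the E15.5 and 83.3% of the E17.5 genes. Over all protein-coding genes, 2493 of the 4358 listed at E15.5 were lost and 1107 of the 2972 listed at E17.5 were gained. Over the whole span from E11.5 to E17.5, 7 genes (12.7%) were gained, against 10.3%, and 12 (21.8%) were lost, against 5.82%. Among listed members, 12 of the 17 at E11.5 were lost and 7 of the 12 at E17.5 were gained. Over all protein-coding genes, 1279 of the 1992 listed at E11.5 were lost and 2259 of the 2972 listed at E17.5 were gained. With lists of equal length, 10 genes (18.2%) were gained from E13.5 to E15.5, against 7.95% of all genes, and 14 (25.5%) were lost from E15.5 to E17.5, against 7.71%. The gain from E15.5 to E17.5 was then 6 genes (10.9%), against 6.71%, so it lay above the background and not below it. Among the stronger 50% of peaks the gain from E11.5 to E17.5 was 2 genes (3.64%), against 7.09%, and so lay below the background and not above it.

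**Figure D2:**
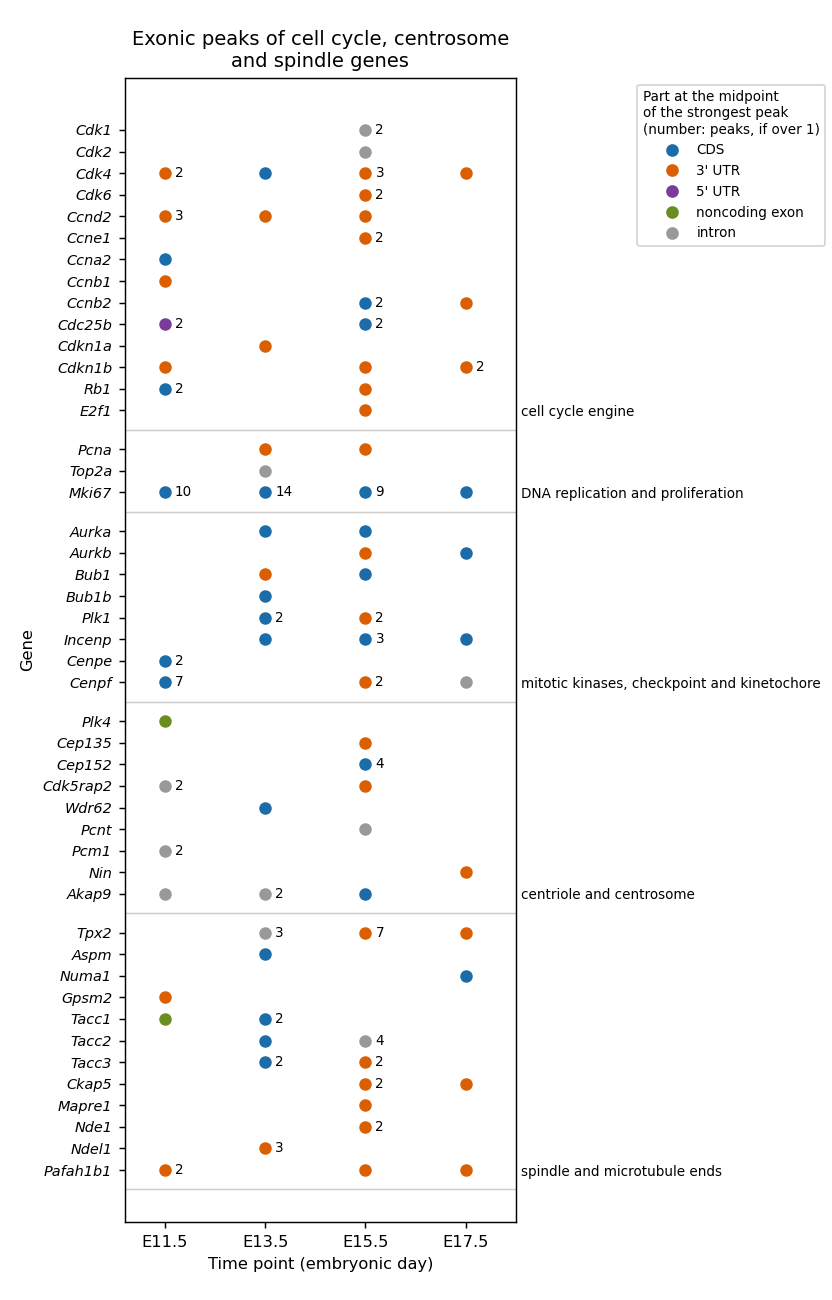
The 46 members with an exonic peak, in rows by role, and the 4 time points in columns. A dot stands for 1 or more peaks, its colour gives the transcript part at the midpoint of the strongest, and a number gives the count of peaks where it is above 1. The E15.5 column is the fullest, with 31 genes, and Cdk4 and Mki67 have a dot in every column.

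In the cell cycle engine 14 of 15 genes had a peak, 7 on E11.5, 3 on E13.5, 11 on E15.5 and 3 on E17.5. Cyclin D1 (Ccnd1) had none. Of the 36 other genes of this role 18 had a peak. Of the 37 peaks 20 had their midpoint in a 3′ UTR, 10 in coding sequence (CDS), 1 in a 5′ UTR and 6 in an intron.

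Cdk4, the kinase that works with D cyclins in G1, had 7 peaks, of which 3 overlapped in the 3′ UTR close to the stop codon. These were chr10:127067136-127067224 on E11.5 (rank 3686), chr10:127067109-127067172 on E15.5 (rank 71) and chr10:127067140-127067258 on E17.5 (rank 3171). Their midpoints lay 159, 119 and 178 nt after the stop codon, and the Cdk4 stretch printed above is common to them. At E13.5 the single peak, chr10:127064857-127064951 (rank 4370), was in the CDS of exon 4 and, in another isoform, in the 3′ UTR.

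Ccnd2 encodes cyclin D2, whose mRNA is known to be carried to the basal endfeet of radial glia in the mouse cortex. It had 5 peaks in 3 lists, all in the 3′ UTR of its last exon and none overlapping another. At E11.5 they were chr6:127129947-127129996 (rank 118), 364 nt after the stop codon, chr6:127129203-127129264 (rank 2523), 1102 nt after it, and chr6:127126223-127126316 (rank 2586), 4066 nt after it. The peak of E13.5, chr6:127130243-127130292 (rank 3665), lay 68 nt after the stop codon. That of E15.5, chr6:127125604-127125654 (rank 9543), lay 467 nt before the transcript's end. The peaks thus spread over most of the 3′ UTR, and there was none at E17.5.

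Cdc25b, the phosphatase that activates CDK1 and whose level bears on the length of G2 in neural progenitors, held the strongest member peak of E11.5. That peak, chr2:131187015-131187092 (rank 54), lay in the 5′ UTR of exon 1, and a second one followed in the CDS of the same exon, chr2:131187158-131187259 (rank 2685). At E15.5 its peaks were in exon 11, chr2:131193596-131193655 (rank 4844), and over an intron.

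Cdkn1b encodes p27, a CDK inhibitor of cells that leave the cycle, and all 4 of its peaks were in the 3′ UTR. The E11.5 peak chr6:134923995-134924042 (rank 2485) and the E15.5 peak chr6:134924038-134924095 (rank 2904) overlapped by their ends. The E17.5 peaks lay further on, at chr6:134924685-134924802 (rank 5561) and chr6:134924904-134925329 (rank 1466). The second of these was 397 nt from the transcript's end. It was the second strongest member peak of E17.5.

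Ccnb2, cyclin B2, had overlapping peaks around its stop codon at E15.5 (chr9:70407859-70408025, rank 8260) and E17.5 (chr9:70407859-70407977, rank 4715), with the same last base in transcript direction. The remaining genes of the engine were listed at 1 or 2 time points. Cdk1, Cdk2, Cdk6 (a D cyclin partner), Ccne1 (cyclin E1) and E2f1 had peaks at E15.5 only, and Ccna2 and Ccnb1 at E11.5 only. The Cdk2 peak was mostly intronic, with 20.5% of its bases in exons. So were the stronger Cdk1 peak, with 27.6%, and the weaker Ccne1 peak, with 21.1%. Cdkn1a, which encodes the CDK inhibitor p21, had 1 peak at E13.5. Rb1, the retinoblastoma protein that restrains E2F factors, had a CDS peak and a mostly intronic one at E11.5, and a 3′ UTR peak at E15.5.

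Among the replication and proliferation genes 3 of 7 had a peak. Mcm2, Mcm3, Mcm5 and Mcm6, subunits of the replicative helicase, had none over an exon, while 22 of the 37 other genes of this role did, Mcm4 and Mcm7 among them. Pcna, the sliding clamp, had overlapping 3′ UTR peaks at E13.5 (chr2:132249518-132249577, rank 3419) and E15.5 (chr2:132249461-132249594, rank 4600). Top2a, the topoisomerase that untangles sister chromatids, had 1 peak of 1482 bp at E13.5 that was mostly intronic, with 3.37% of its bases in exons.

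Mki67 encodes Ki-67, the proliferation marker that coats mitotic chromosomes, and it held 34 of the 159 exonic peaks of the members (21.4%). It had 10 on E11.5, 14 on E13.5, 9 on E15.5 and 1 on E17.5. All 31 CDS peaks of the replication genes were its own. The midpoint of 28 of the 34 peaks (82.4%) lay in its largest exon, which is 6836 of the 10061 nt of the isoform (67.9%). Its strongest peaks were chr7:135696888-135697108 on E11.5 (rank 187), the printed chr7:135697216-135697425 on E13.5 (rank 41) and chr7:135697578-135697679 on E15.5 (rank 242). At E17.5 the single peak was chr7:135700743-135700792, of rank 5051. Peaks lay over 44.8% of the bases of its CDS on E11.5, 36.9% on E13.5, 10.1% on E15.5 and 0.524% on E17.5. Of its peaks 22 overlapped one of another time point (64.7%). One E11.5 peak, chr7:135693135-135693263, has a near copy in a processed pseudogene, so its reads can be shared.

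**Figure D3:**
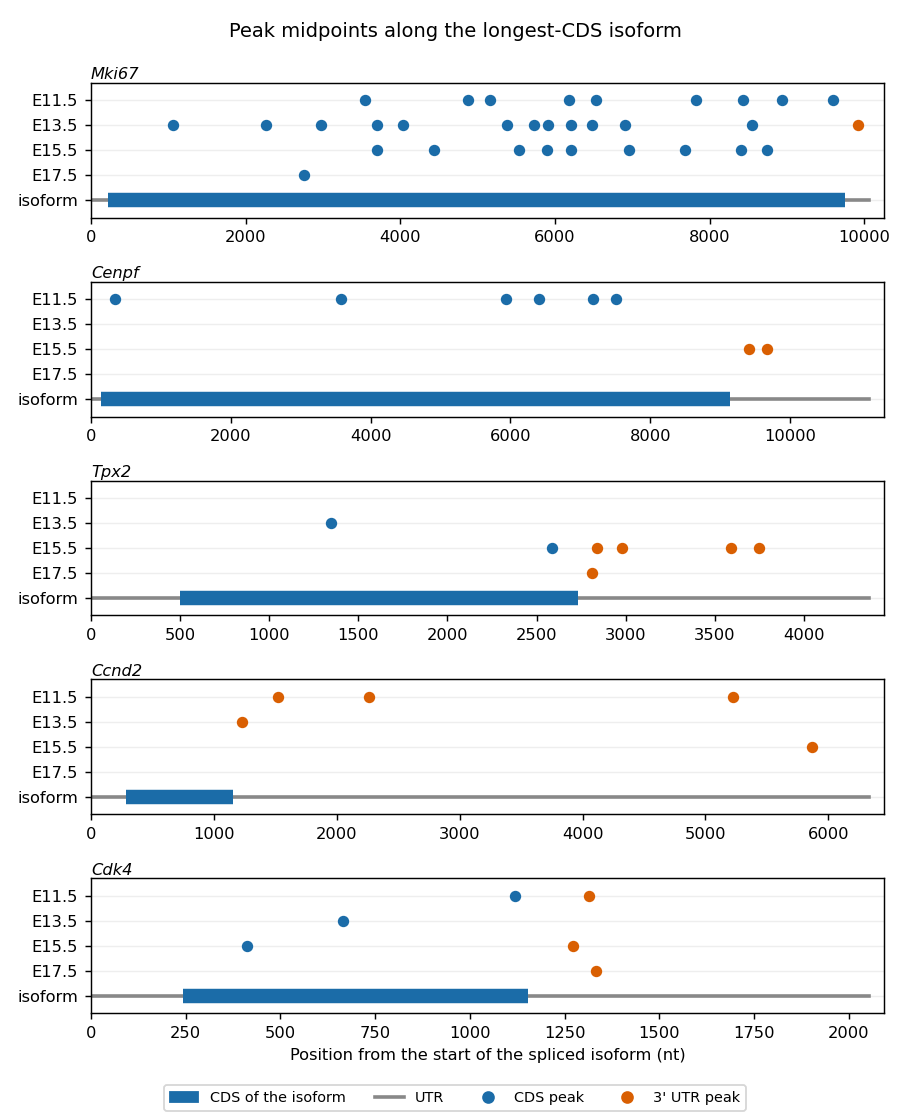
Midpoints of peaks along the spliced isoform with the longest CDS (x axis, nt from its start) for Mki67, Cenpf, Tpx2, Ccnd2 and Cdk4, with 1 line per time point and the isoform below, its CDS as a thick bar. Peaks with an intronic midpoint are not drawn. Mki67 midpoints run from 3539 to 9592 nt at E11.5 and from 3696 to 8746 nt at E15.5. At E13.5 they start earlier in the CDS, at 1061 nt. The peaks of Ccnd2 are in the 3′ UTR.

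All 8 mitotic kinases, checkpoint and kinetochore genes had a peak, 2 on E11.5, 5 on E13.5, 6 on E15.5 and 3 on E17.5. Of the 34 other genes of this role 27 had one. The E11.5 genes were Cenpe and Cenpf, and neither had an exonic peak at E13.5. Of the 28 peaks 18 were in CDS and 5 in a 3′ UTR.

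Cenpe, the kinesin that carries chromosomes to the metaphase plate, had 2 peaks at E11.5 and none later. The stronger, printed above, ranked 106. The weaker lay in an exon of a noncoding isoform. Cenpf, a large kinetochore and nuclear envelope protein, had 7 peaks at E11.5, 6 of them in CDS. The strongest was the printed stretch in exon 13 (rank 199), followed by chr1:189652969-189653125 in the same exon (rank 380) and chr1:189683890-189683953 in exon 3 (rank 433). At E15.5 its 2 peaks were in the 3′ UTR, chr1:189642297-189642347 (rank 6272) and chr1:189642037-189642091 (rank 9966), and at E17.5 it had 1 mostly intronic peak. With the CDS read before the 3′ UTR, the CDS peaks of Cenpf were thus all of E11.5 and its 3′ UTR peaks all of E15.5. The midpoint of the exon 3 peak is also in the 3′ UTR of another isoform.

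Incenp, the scaffold that activates Aurora B in the chromosomal passenger complex, was listed at E13.5, E15.5 and E17.5. Its strongest peak was in the CDS of exon 3 at E15.5, chr19:9893450-9893547 (rank 90). Overlapping peaks in exon 17 followed at E15.5 (rank 7577) and at E17.5, chr19:9874256-9874340 (rank 3046), and the capitals of the printed Incenp stretch are their common part. The E13.5 peak, chr19:9878151-9878220 (rank 4509), was in exon 12.

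Aurka, Bub1 and Plk1 each had overlapping peaks at E13.5 and E15.5 and none at the other time points. Aurora A (Aurka) had them across the stop codon in exon 9, with the midpoint in CDS, chr2:172356776-172356828 (rank 1285) and chr2:172356758-172356838 (rank 5741). For Bub1, the checkpoint kinase, they spanned the stop codon too, chr2:127801180-127801275 at E13.5 (rank 989) and chr2:127801238-127801287 at E15.5 (rank 8699). Polo-like kinase 1 (Plk1) had chr7:122168771-122168958 (rank 2975) and chr7:122168638-122168958 (rank 5765), the second with 42.4% of its bases in exons. The strongest Plk1 peak was another, in the 3′ UTR at E15.5, chr7:122169661-122169728 (rank 2024). A further Plk1 peak, in CDS at E13.5, ranked 4030. Bub1b, the BUBR1 checkpoint protein, had a CDS peak on E13.5, and Aurkb, Aurora B, had a 3′ UTR peak on E15.5 and a CDS peak on E17.5.

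Of the centriole and centrosome genes 9 of 13 had a peak, 4 on E11.5, 2 on E13.5, 5 on E15.5 and 1 on E17.5. The centriole assembly factors Stil, Sass6, Cenpj and Cep63 had none. Of the 33 other genes of this role 20 had a peak. Of the 18 peaks 9 had their midpoint in an intron and reached an exon with part of their length, 5 were in CDS and 3 in a 3′ UTR. Over all members an intron held the midpoint of 28 of the 159 exonic peaks.

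Wdr62, a spindle pole protein, had the second strongest member peak of E13.5, chr7:30241309-30241358 in the CDS of exon 31 (rank 81), and no other. The midpoint of that peak is also in the 3′ UTR of another isoform. Nin encodes ninein, which anchors microtubules at the mother centriole, and its single peak was the strongest member peak of E17.5. It lay in the 3′ UTR, chr12:70011510-70011561 (rank 834), 100 nt before the transcript's end. In both genes the listing thus rests on 1 peak in 1 list.

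Akap9 encodes a scaffold that nucleates microtubules at the centrosome and the Golgi apparatus, and it was listed from E11.5 to E15.5. Its E15.5 peak, printed above, was in the CDS of exon 47 (rank 244). The E13.5 peak that overlapped it, chr5:4077931-4078233 (rank 1086), had 12.2% of its bases in exons, and the E11.5 peak, chr5:4046935-4047289 (rank 6272), had 1.97%. Exonic sequence alone was under the E15.5 peak only.

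Cep152, which recruits the kinase PLK4 to the centriole, had 4 peaks at E15.5, 2 in CDS and 2 over introns. The strongest was chr2:125579648-125579781 in exon 21 (rank 4371). Cep135 and Cdk5rap2 had a 3′ UTR peak at E15.5, and Pcnt, pericentrin, a mostly intronic one. At E11.5 there were Plk4, the kinase of centriole duplication, with a peak in an exon of a noncoding isoform, Pcm1, the scaffold of centriolar satellites, with 1 CDS and 1 mostly intronic peak, and Cdk5rap2 with 2 peaks of over 1000 bp that shared under 1% of their bases with exons.

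All 12 genes of the spindle and microtubule ends had a peak, 3 on E11.5, 6 on E13.5, 7 on E15.5 and 4 on E17.5. Of the 36 other genes of this role 28 had one. Of the members' 39 peaks 19 were in a 3′ UTR and 11 in CDS. Listed longest were Tpx2, with 11 peaks from E13.5 to E17.5, and Pafah1b1, with 4.

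Tpx2 encodes the activator of Aurora A on spindle microtubules. The strongest peak, chr2:152892278-152893898 at E13.5 (rank 114), spanned 1621 bp from exon 17 into the last exon, 18, with 20.9% of its bases in exons. At E15.5 it had 7 peaks, 4 of them in the 3′ UTR. One of those, chr2:152893773-152893823 (rank 5062), lay under the E17.5 peak, chr2:152893710-152893824 (rank 5383), and under the end of the long E13.5 peak. The E15.5 peak in exon 17, chr2:152892230-152892295, has near copies in 2 processed pseudogenes, so its reads can be shared.

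Mapre1 encodes EB1, which tracks growing microtubule ends. Its single peak, chr2:153773022-153773185 in the 3′ UTR at E15.5, ranked 25 of 10265 and was the member peak of highest rank in any list. It was 207 nt from the transcript's end and 6173 nt from the stop codon. Ckap5, the microtubule polymerase of the XMAP215 family, had 3′ UTR peaks that overlapped at E15.5, chr2:91620268-91620513 (rank 2030), and E17.5, chr2:91620430-91620532 (rank 3276).

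The dynein regulators Nde1, Ndel1 and Pafah1b1 act together in nuclear movement and spindle orientation, and PAFAH1B1 (LIS1) is the human lissencephaly gene. Their exonic peaks were all in the 3′ UTR but for 1 of Ndel1 that was mostly intronic. Ndel1 had its peaks at E13.5, the strongest at chr11:68821678-68821727 (rank 261), 268 nt before the transcript's end. Nde1 had 2 at E15.5, of ranks 480 and 546. Pafah1b1 had 2 on E11.5, chr11:74677120-74677239 (rank 726) and chr11:74674665-74674714 (rank 2254), 1 on E15.5, chr11:74677332-74677458 (rank 8233), and 1 on E17.5, chr11:74674333-74674381 (rank 5094). None of the 4 overlapped another. Each of the 3 genes was thus listed at a different set of time points.

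The TACC proteins bind Ckap5 at spindle microtubules. Tacc2 had the strongest peak of the family, chr7:130729561-130729665 at E13.5 (rank 157), in CDS and, in another isoform, in the 3′ UTR. At E15.5 it had 4 peaks. The strongest of these, chr7:130729801-130733545 (rank 3766), spanned 3745 bp with 2.78% of its bases in exons. Tacc3 had 2 CDS peaks at E13.5, and a CDS and a 3′ UTR peak at E15.5. Tacc1 had peaks at E11.5 and E13.5. Aspm, the spindle pole protein, had 1 CDS peak at E13.5. Gpsm2 (LGN) and Numa1 (NuMA), partners in the cortical complex that orients the spindle, had 1 peak each at opposite ends of the series, Gpsm2 in the 3′ UTR at E11.5 and Numa1 in CDS at E17.5.

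The 159 exonic peaks of the members numbered 41, 40, 65 and 13 from E11.5 to E17.5, and none touched an exon of another gene. Their midpoints lay in an exon in 131 cases and in an intron in 28. By time point the intronic share was 17.1%, 17.5%, 20% and 7.69% from E11.5 to E17.5. Over the exonic peaks of all protein-coding genes it was 19.7%, 16.3%, 16.1% and 16.6%. Besides these 159 peaks, 12 of the 55 members (21.8%) had peaks that lay within the gene and touched no exon of it, against 6.68% of all protein-coding genes. The part of intron length in that difference was not tested. Among the peaks with an exonic midpoint the CDS held 61.8% on E11.5, 75.8% on E13.5, 48.1% on E15.5 and 33.3% on E17.5, while over all protein-coding genes it held 45.2%, 37.4%, 32.4% and 33.5%. The members' coding share was thus above that of all genes up to E15.5.

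The 3′ UTR share was 26.5% on E11.5 (exact 95% binomial interval 12.9% to 44.4%, 34 peaks), 24.2% on E13.5 (11.1% to 42.3%, 33 peaks), 48.1% on E15.5 (34% to 62.4%, 52 peaks) and 66.7% on E17.5 (34.9% to 90.1%, 12 peaks). Over all protein-coding genes it was 44.3%, 55.6%, 60.2% and 59.1%. The intervals cover counting error only, and peaks of 1 gene share their source. Mki67 weighs on these shares. Without it the members' 3′ UTR share was 36%, 35%, 58.1% and 72.7%, and the CDS share 48%, 65%, 37.2% and 27.3%. With 1 peak per gene, the strongest, the 3′ UTR share at E15.5 was 65.5%.

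**Figure D4:**
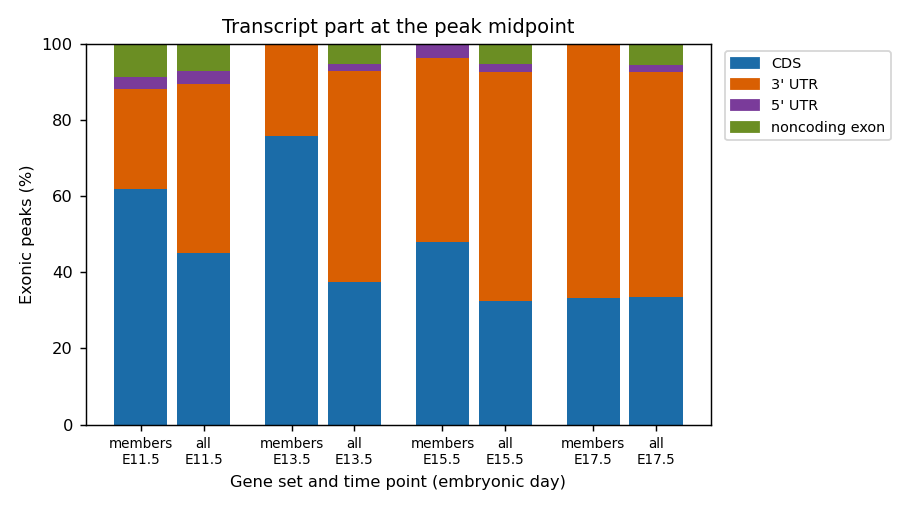
Transcript part at the midpoint of exonic peaks (y axis, percent of peaks with an exonic midpoint) for the members and, to the right of each, all protein-coding genes, at the 4 time points. The members' CDS bar is tallest at E13.5, at 75.8%, and at E17.5 it is about as tall as that of all genes, at 33.3% against 33.5%.

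Of the members' 3′ UTR peaks 49 could be placed on the isoform with the longest CDS. Their median distance was 490 nt from the stop codon and 666 nt from the transcript's end, and 21 of the 49 (42.9%) lay within 500 nt of that end. These values were not set beside those of all protein-coding genes, so they show no trait particular to the members.

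By rank, the members' peaks stood above those of all protein-coding genes at the early time points and below them later. The median rank, as a percent of the list with the strongest at 0, was 41.1% for the members on E11.5 against 51.5% for all protein-coding genes, 36.9% against 49.6% on E13.5, 56.6% against 49.2% on E15.5 and 71.8% against 49.1% on E17.5. In the stronger 50% of the list were 23 of 41 member peaks on E11.5 (56.1%, against 48.3% of the exonic peaks of all genes), 25 of 40 on E13.5 (62.5%, against 50.4%), 29 of 65 on E15.5 (44.6%, against 50.9%) and 3 of 13 on E17.5 (23.1%, against 51%).

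**Figure D5:**
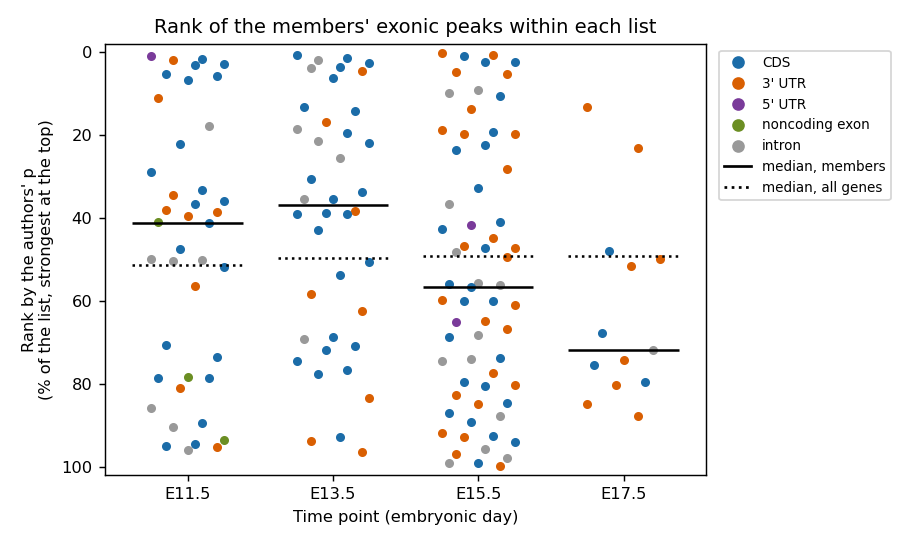
Rank of each member peak in the list of its time point (y axis, percent of the list, strongest at the top), coloured by transcript part, with medians of the members (solid) and of all protein-coding genes (dotted). The members' median lies above that of all genes at E11.5 and E13.5 and below it at E15.5 and E17.5, where 3 of 13 peaks are in the stronger 50%.

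The members are longer than most genes, and long exons can hold more peaks. Their median exonic length, over all isoforms, was 5743 bp, against 3489.5 bp for all protein-coding genes and 4652 bp for those with a peak. All protein-coding genes were therefore also cut into 4 equal classes by exonic length. In the class with the longest exons 22 of 26 members (84.6%) had a peak, against 44.3% of all genes of that class. In the next it was 14 of 19 (73.7%), against 35.9%. In the shorter classes it was 9 of 9, against 26.7%, and 1 of 1, against 13.3%. Over all time points together the share of members was above that of genes of like length in each class. By time point it lay below in the class with the second longest exons at E17.5, where 3 of 19 members (15.8%) had a peak, against 17.2%. It also lay below in the shortest class, with its single member, at E11.5 and E13.5, at 0 against 3.73% and 5.15%.

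Recurring peaks were about as frequent in the members as elsewhere. Of the 159 exonic peaks 51 (32.1%) overlapped a peak of the same gene at another time point, against 5627 of 18912 (29.8%) over all protein-coding genes. Without Mki67 it was 29 of 125 (23.2%). Of the 22 members with peaks at 2 or more time points, 12 (54.5%) had overlapping ones, against 1749 of 3460 genes (50.5%).

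In base composition the members' CDS peaks were lower in GC than those of all genes, and so were the coding sequences they lay in. The median GC content was 47.3% over 62 CDS peaks of 23 members, against 54.1% over 4482 CDS peaks of all protein-coding genes. Set against the GC content of the gene's own CDS, the median difference was 0.19 percentage points for the members and 0.12 for all genes. Without Mki67 the members' median over 36 CDS peaks was a GC content of 50% and a difference of -0.79 percentage points. The 44 member peaks in 3′ UTRs had a median GC content of 45.6%, against 46.9%, and lay 1.53 percentage points above their own 3′ UTR, against 0.89. Without Mki67 the members' median over 43 such peaks was a GC content of 46% and a difference of 1.04 percentage points.

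Folding energy as predicted by RNAfold, per 100 nt and more negative for a more stable fold, had a median of -20.1 kcal/mol in the members' CDS peaks and -20.8 kcal/mol in those of all genes. In 3′ UTR peaks it was -16.0 kcal/mol for the members and -18.8 kcal/mol for all genes. Without Mki67 the members' medians were -20.0 kcal/mol in CDS peaks and -15.5 kcal/mol in 3′ UTR peaks. Each stretch was folded at its own width, and the part of width in these differences was not tested. The predicted folds of member peaks in 3′ UTRs spanned -51.8 to -4.48 kcal/mol, so they differed among themselves by more than the medians did.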

How the data were processed

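STAU2 RIP and input RNA of mouse embryonic cortex were sequenced by the authors, and the 8 peak lists that they deposited, a plus and a minus strand list for each of the 4 time points, were used. Per the labels, the lists of a time point belong to all 3 RIP and all 3 input libraries, so replicates cannot be separated. Cufflinks 2.2.1, bedtools 2.17.0, TopHat2 2.0.9, TopHat and the build mm10 are listed, without roles, in the submitters' processing notes. The caller of the peaks is not given in the sources used here. Peaks carry a deposited score, a deposited signal whose scaling is not stated and which was not compared, and a p-value and q-value that are the authors' own, with q below 0.01.

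Genes with a plus strand made up 95.3% to 97.1% of those under the lists named positive and 2.57% to 5.01% under those named negative. Peaks were set against exons of GENCODE vM21 (GRCm38, the assembly of mm10) on the same strand, with a minimum overlap of 1 bp, over all isoforms. The transcript part was read at the midpoint, in the order CDS, 3′ UTR, 5′ UTR, noncoding exon, intron. The overlap and the part were tested on simulated peaks.

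Sequences of spliced transcripts were folded with RNAfold 2.7.2 up to 300 nt and compared with other transcripts by BLAST 2.17.0 (identity of at least 95% over at least 90% of the stretch), with Python 3.11.15, SciPy 1.17.1 and matplotlib 3.10.9. Members whose exonic peaks are given with coordinates numbered 23. They were those with peaks at 3 or 4 time points and the 5 of highest rank per time point. Added to these were members with 3 or more peaks in 1 list and those with overlapping peaks between time points. Others are named with single values where they fill a role. The members and gene lists were chosen with earlier results of these data known. Alternatives were stricter overlaps, stronger or equal numbers of peaks, peak width, isoforms, peaks on several genes, and the reading of the transcript part. No test was made.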

Additional observations from a re-analysis of the deposited data

How the results depend on the processing

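No paired analysis was possible because the lists pool the replicates of a time point, and for the same reason no library could be left out. Among the stronger 50% of peaks the members with a peak numbered 9 on E11.5, 19 on E15.5 and 3 on E17.5, with 0 at all 4 time points, 1 gained from E15.5 to E17.5 (1.82%, against 4.43% of all protein-coding genes) and 2 gained from E11.5 to E17.5 (3.64%, against 7.09%, where the full lists gave 12.7% against 10.3%). With lists of equal length the count was 20 at E15.5, with 10 gained from E13.5 to E15.5 and 6 gained from E15.5 to E17.5 (10.9%, against 6.71%, where the full lists gave 3.64% against 5.03%). With 1 peak per member the 3′ UTR share at E15.5 was 65.5%. Without Mki67, an alternative chosen after seeing the data, 1 member had peaks at all 4 time points. The cause of these shifts was not tested beyond the smaller number of peaks or genes that each setting keeps. Every other count stayed within 1.5 times its value and every other 3′ UTR share within its interval under these settings and under 50% of the peak in exons, peaks over 5000 bp or on several genes left out, the longest coding isoform, and 3′ UTR by any overlap. The same held with the 3′ UTR read before the CDS, which was also chosen after seeing the data. Depth is unknown, so the absence of a peak is not the absence of binding.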

Other observations

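The genes named here were chosen after their values were seen. Peaks that lay in an intron of a member and touched no exon of it numbered 49, in 12 members (21.8%, against 6.68% of all protein-coding genes), of which 32 were on E11.5, 3 on E13.5, 8 on E15.5 and 6 on E17.5. The part of intron length in the difference from all genes was not tested. Mcm6, which had no exonic peak, had 15 of the 49 peaks, all in intron 1 at E11.5, and their deposited signal ran from 11.1 to 12.0. Cdk1 had 5 in intron 4 at E15.5, with a signal of 9.96 to 10.5. Aspm had 4 in intron 25 at E17.5, each with a signal of 8.64. Cdk5rap2, whose human gene is a microcephaly gene, had 7, and its intron 28 held a peak at each of the 4 time points. The E11.5 peak was chr4:70248171-70248220 and the E13.5 peak chr4:70247686-70248057. The E15.5 peak was chr4:70248164-70248233 and the E17.5 peak chr4:70247991-70248064. On the opposite strand of members' exons there was 1 peak, over Aurka at E13.5 (chr2:172356665-172356737, rank 4536).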
